A study of Rattus norvegicus with 23 samples.

Results

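Sarcomeric myosin heavy and light chains were followed over 6 regions of the rat heart and great vessels. The genes are *Myh6*, *Myh7* and *Myh7b* for the heavy chains and *Myl2*, *Myl3*, *Myl4* and *Myl7* for the light chains. They were chosen by name, and a probe was taken as theirs where its accession belongs to the gene in the RefSeq table. All 7 had a probe, of 16544 genes with a symbol on the array. RNA of male Wistar rats aged 8 to 11 weeks, 12 in all, was hybridized to 23 single-color Agilent arrays. There were 4 arrays each of the left atrium next to the pulmonary vein (LA), a mass of the left ventricle (LV), the sinoatrial node region (SA), the pulmonary vein (PV) and the pulmonary artery (PA), and 3 arrays of the right ventricular free wall (RV). No region was treated. An SA sample pooled 2 rats and an LV mass was cut into 3 pieces, so that SA arrays stand for more than 1 animal and LV arrays may share animals. The labels do not say whether replicates came from separate animals, and all p-values measure the spread between these samples only.

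Each sarcomeric myosin molecule is a pair of heavy chains, which carry the motor and bind actin, with an essential and a regulatory light chain wrapped around the neck of each head. The adult rodent heart builds its thick filaments mainly from the fast alpha heavy chain encoded by *Myh6*, while the slower beta chain of *Myh7* is known from the fetal and the stressed rodent ventricle and from slow skeletal muscle. The regulatory light chains are *Myl2*, long used as a ventricular marker, and *Myl7*, long used as an atrial one, and the essential light chains are *Myl3*, called ventricular, and *Myl4*, called atrial. *Myh7b* encodes a minor heavy chain of slow and cardiac muscle. The comparisons below ask how far these chamber assignments hold in RNA of the rat, and what the node, the pulmonary vein with its sleeve of atrial muscle and the pulmonary artery carry.

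The 3 heavy chain genes also hold microRNAs that are cut from their introns. These are shown because their transcription is tied to that of the host, and because their seeds, bases 2 to 8 in capitals, are nearly the same. The sequences are mature forms from RefSeq on GRCr8, written 5′ to 3′. rno-miR-208a-3p lies at chr15:32395568-32395585 within *Myh6* and rno-miR-208b-3p at chr15:32421648-32421665 within *Myh7*, both on the minus strand. rno-miR-499-5p lies at chr3:164570616-164570636 within *Myh7b*, on the plus strand. The microRNAs themselves were not measured here.
rno-miR-208a-3p: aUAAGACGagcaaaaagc
rno-miR-208b-3p: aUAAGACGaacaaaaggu
rno-miR-499-5p: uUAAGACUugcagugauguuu

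*Myh6* (chr15:32388102-32413663) and *Myh7* (chr15:32416525-32439851) are neighbours on GRCr8, 2861 bases apart. *Myh7b* lies at chr3:164537211-164582441, *Myl2* at chr12:40114964-40126236, *Myl3* at chr8:119617077-119623215, *Myl4* at chr10:89949733-89985308 and *Myl7* at chr14:84994644-84997173. The promoters of the 2 essential light chains are printed because these chains behaved differently between chambers in the arrays. Each runs from 250 bases before to 50 after the annotated start on the plus strand, from RefSeq on GRCr8, and capitals mark matches to a motif on either strand. The window of *Myl3* is chr8:119616844-119617143 and that of *Myl4* is chr10:89975900-89976199.
Myl3: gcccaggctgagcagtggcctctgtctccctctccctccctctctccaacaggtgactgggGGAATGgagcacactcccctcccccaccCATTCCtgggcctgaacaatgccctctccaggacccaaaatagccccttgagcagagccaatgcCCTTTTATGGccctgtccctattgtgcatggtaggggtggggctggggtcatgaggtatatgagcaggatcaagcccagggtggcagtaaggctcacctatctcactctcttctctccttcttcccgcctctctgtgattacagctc
Myl4: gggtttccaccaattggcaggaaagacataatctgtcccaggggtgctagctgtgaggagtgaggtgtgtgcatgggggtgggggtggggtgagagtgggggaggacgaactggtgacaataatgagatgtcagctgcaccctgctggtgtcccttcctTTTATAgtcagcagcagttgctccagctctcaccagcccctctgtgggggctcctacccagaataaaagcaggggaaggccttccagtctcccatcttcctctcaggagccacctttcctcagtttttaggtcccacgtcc
The motifs searched on both strands were the CArG box, the MEF2 box, the letters CATTCC bound by TEAD factors, the GATA motif AGATAA and the TATA box in the form TATAAA. The *Myl3* window held 1 CArG box and 2 matches to CATTCC, which did not overlap one another. The *Myl4* window held 1 match to TATAAA, at a start that lies 26417 bases inside the annotated gene. Of all 33469 promoter windows of this length, 1.64% held a CArG box, 14.2% CATTCC and 14.2% TATAAA. The matches are described only as letters in these windows, and binding was not measured here.

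The values are the authors' deposited intensities, scaled to a common 90th percentile, and every value below is log2(normalized signal + 1). The share of probes well above background was 58.6% on the lowest array and 79.8% on the highest. The probes of the 7 genes were well above background on all 23 arrays and saturated on none. The brightest spot was that of *Myl7*, at 76.5% of the value at which the scanner saturates. Only *Myl2* had 2 probes, and the brighter was used. Probe sequences were not analysed here, so whether a probe also binds the RNA of another myosin gene was not tested, and no gene's level is set against another's.

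The regional labels were checked against marker genes. *Irx4*, a ventricular transcription factor, was between 12.21 and 12.62 on the 7 ventricular arrays, between 4.97 and 6.32 in LA, and no SA or PV array had it well above background. *Mybphl*, an atrial myosin-binding protein, was between 17.01 and 17.80 on the arrays of LA, SA and PV and at most 9.09 in LV and RV. *Hcn4*, the pacemaker channel, was highest in SA, at 10.34 ± 0.16 (SD, n = 4), and the 6 pacemaker markers summed to between 16937 and 19711 in SA against at most 14535 elsewhere. Not all 6 followed the sum, as *Isl1* averaged 8.70 in PA and 3.78 in SA and *Tbx3* 10.60 in LV and 10.73 in SA. PA replicate 2 stood apart from the other PA arrays in several myosin genes, with *Myl2* at 9.44 against 12.99 to 13.61 and *Myl3* at 8.01 against 11.29 to 11.94. This array widens the common estimate of spread in a fit of all 6 regions, and results that it decides are given with and without it.

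**Figure D1:**
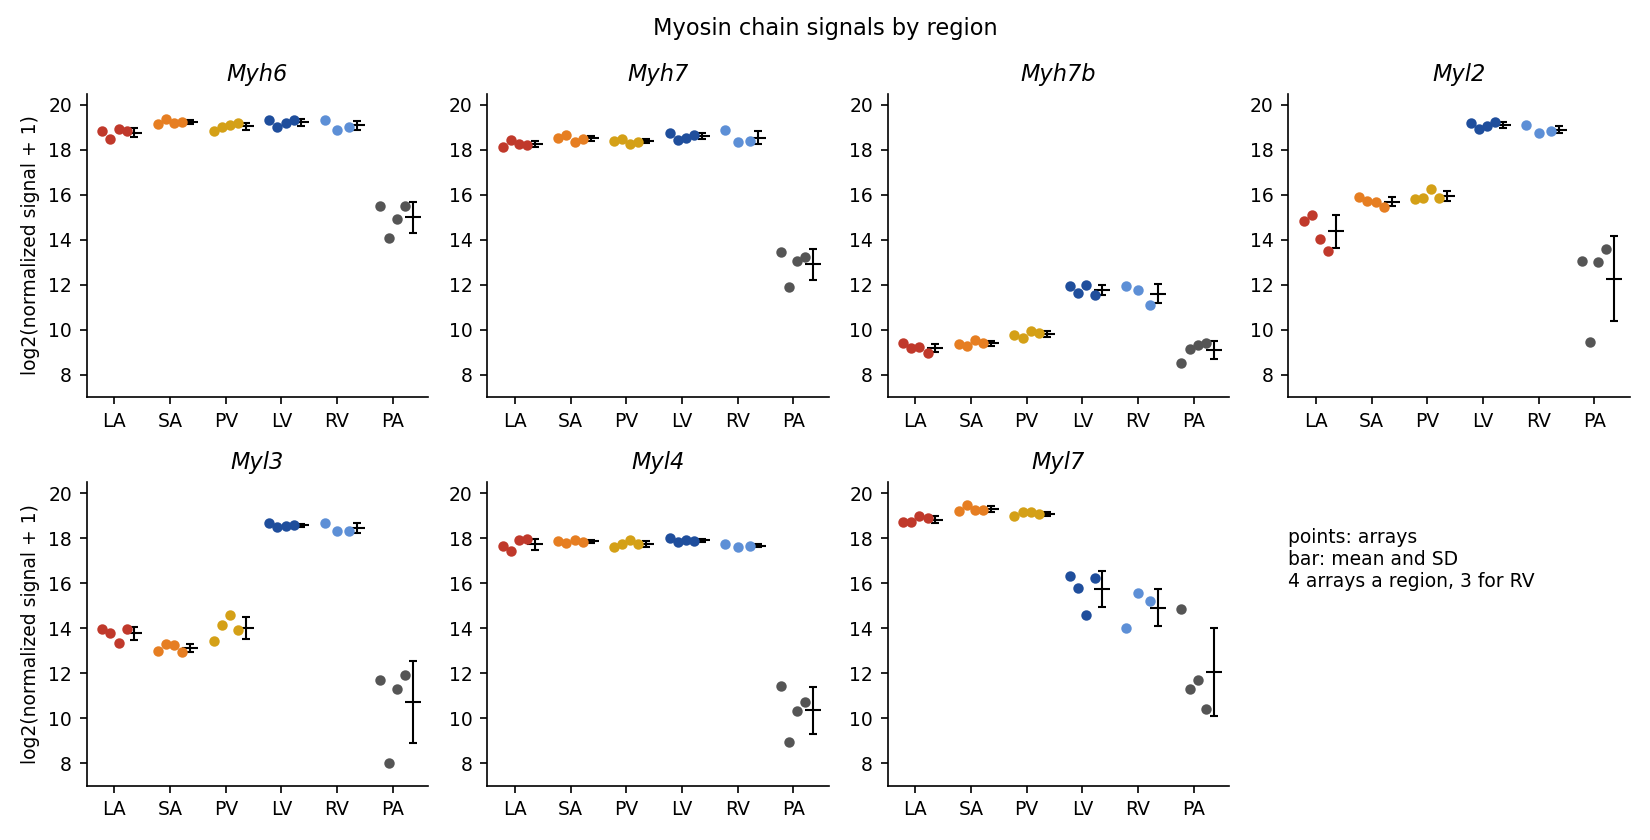
Log2(normalized signal + 1) of the 7 myosin genes on each of the 23 arrays, by region, with the mean and SD at the right of each group. *Myl2* and *Myl3* sit near 19 and 18.5 in LV and RV and below 16.3 in LA, SA and PV, *Myl7* has the opposite order, and *Myh6*, *Myh7* and *Myl4* have means within 0.46 of each other over the 5 heart regions and are low in PA.

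Between LA and the ventricles (V, the mean of LV and RV), the regulatory light chains moved in opposite directions, and of the essential light chains *Myl3* differed and *Myl4* did not pass the test. *Myl2* was 24.8-fold and *Myl3* 26.7-fold lower in LA, but the dimmer probe of *Myl2* gave a log2 difference of -6.91 in place of -4.63. *Myl7* was 11.4-fold higher, and *Myl4* differed by a log2 value of -0.054 that became 0.22 after quantile normalization. Of the 7 genes, 4 differed at a limma adjusted p below 0.05, and *Myh7b* was the fourth. Among all 16089 genes tested, 35.4% differed in this comparison. The same 4 genes did not overlap between LA and V, as did 25.0% of all genes. As in any bulk sample, fewer cells of a type and less RNA per cell cannot be told apart.

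*Myl2*, the ventricular regulatory light chain, was 14.84, 15.11, 14.04 and 13.48 on the LA arrays. It was 19.20, 18.92, 19.06 and 19.22 in LV and 19.08, 18.76 and 18.84 in RV. All 7 ventricular arrays lay above all LA arrays, with a gap of 3.65, and LA was the more scattered (SD 0.75, n = 4, against 0.14 in LV). The log2 difference of LA from V was -4.63 (standard error 0.53, limma adjusted p = 9.5e-07).

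*Myl7*, the atrial regulatory light chain, was 18.72, 18.70, 18.99 and 18.90 in LA. It was 16.34, 15.77, 14.58 and 16.21 in LV and 13.99, 15.57 and 15.20 in RV. The groups did not overlap, but the ventricles spread over more than 2 log2 units, far more than LA. LA exceeded V by 3.51 (standard error 0.56, limma adjusted p = 5.8e-05).

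*Myl3*, the ventricular essential light chain, was 13.94, 13.80, 13.34 and 13.98 in LA. On the LV arrays it was 18.68, 18.49, 18.53 and 18.58, and in RV 18.70, 18.30 and 18.32. The gap of 4.32 between the lowest ventricular and the highest LA array was the widest of the 7 genes. The log2 difference of LA from V was -4.74 (standard error 0.49, limma adjusted p = 2.9e-07).

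*Myl4*, the atrial essential light chain, had values in the same range on the ventricular and the LA arrays. Its values were 17.66, 17.43, 17.92 and 17.94 in LA. They were 18.00, 17.84, 17.93 and 17.88 in LV and 17.74, 17.59 and 17.67 in RV. The groups overlapped, and the log2 difference of LA from V was -0.054 with a 95% confidence interval from -0.64 to 0.53 (limma adjusted p = 0.91). The fit without the PA arrays gave an adjusted p of 0.21 for LA against LV and 0.71 for LA against RV.

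*Myh7b*, the minor heavy chain, was 9.39, 9.20, 9.21 and 8.96 in LA. It was 11.95, 11.62, 11.98 and 11.56 in LV and 11.93, 11.78 and 11.11 in RV. It separated the chambers with no overlap, with an SD of 0.18 in LA, 0.22 in LV and 0.44 in RV. LA was 5.66-fold lower, a log2 difference of -2.50 (standard error 0.16, limma adjusted p = 6.3e-10).

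The major heavy chains differed far less. *Myh6* was 18.82, 18.48, 18.93 and 18.83 in LA, 19.34, 19.02, 19.20 and 19.33 in LV and 19.32, 18.89 and 19.03 in RV. *Myh7* was 18.12, 18.42, 18.27 and 18.19 in LA, 18.74, 18.45, 18.54 and 18.67 in LV and 18.87, 18.37 and 18.37 in RV. For both genes LA lay lowest on average, and a few arrays of the groups overlapped. The log2 difference of LA from V was -0.38 for *Myh6* (standard error 0.19, limma adjusted p = 0.14) and -0.32 for *Myh7* (standard error 0.20, adjusted p = 0.24). Both passed the threshold in the fit of the 19 heart arrays without PA, which was added after the data were seen, with limma adjusted p of 0.0080 and 0.023, where 36.1% of 15970 genes passed. Leaving out PA replicate 2 alone gave 0.018 for *Myh6* and 0.027 for *Myh7*, where 35.3% of genes passed. With only the arrays compared in the fit, *Myh6* passed (limma adjusted p = 0.030) and *Myh7* did not, where 34% of genes passed. Of the 7 markers of working myocytes, 4 were lower in LA than in V and 3 did not pass (median -0.78). Their summed signal was between 1076250 and 1315470 in LA and between 1701000 and 2046740 in the ventricles, and their part in these differences was not tested. After quantile normalization the difference was -0.0092 for *Myh6* and 0.070 for *Myh7*. That step gives every array the same set of values, so it also removes a shift shared by the brightest genes.

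**Figure D2:**
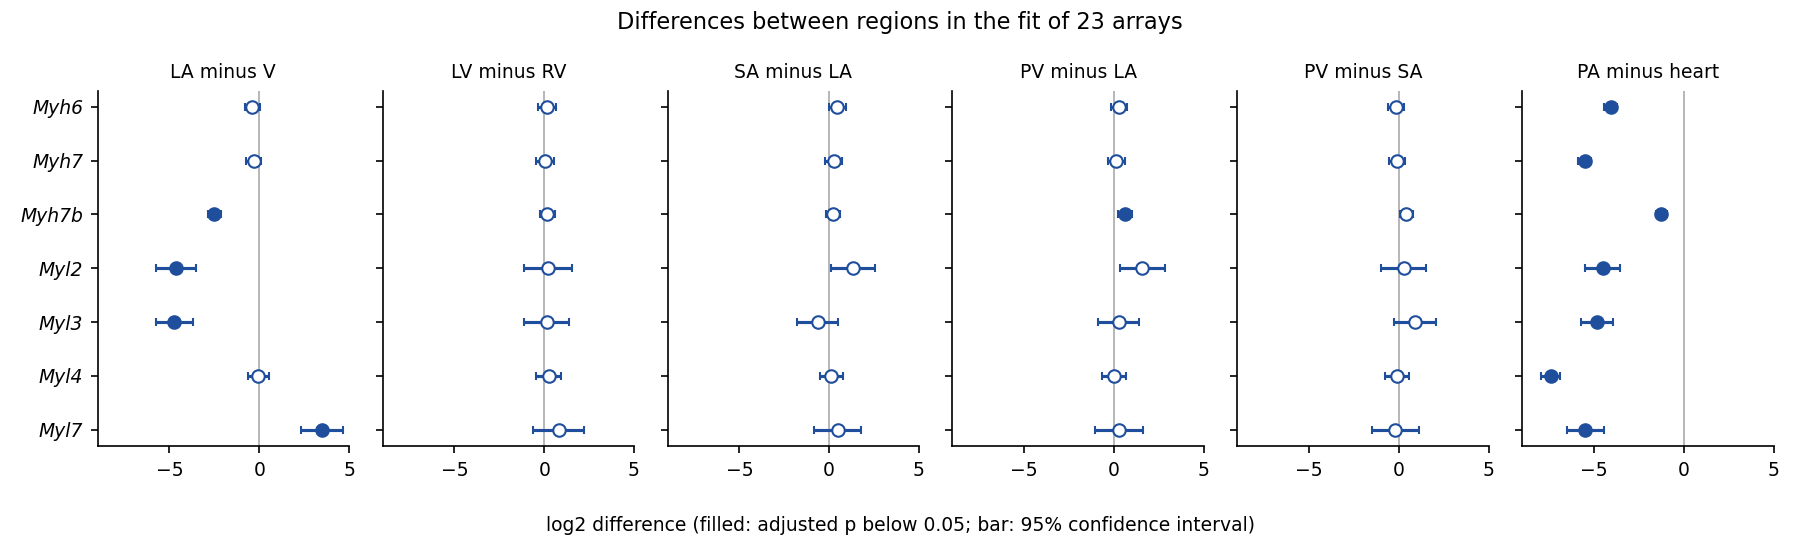
Log2 difference of each myosin gene in the 6 comparisons of the fit of 23 arrays, with 95% confidence intervals and filled points where the limma adjusted p is below 0.05. In LA minus V, *Myh7b*, *Myl2* and *Myl3* lie at -2.50 to -4.74 and *Myl7* at 3.51, LV minus RV holds no filled point, and in PA minus heart all 7 are filled.

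Ratios of paralogous chains were formed on each array, which removes differences in the share of myocyte RNA common to both chains. The size of a ratio in 1 region depends on how brightly each probe shines, so only its change between regions is read, as a description without a test. The log2 ratio of *Myl7* to *Myl2* was between 3.59 and 5.42 in LA and between -5.09 and -2.86 on the ventricular arrays. LA exceeded V by 8.14 (pooled SD of the arrays 0.86). The difference was 9.28 with the mean of the *Myl2* probes and 10.42 with the dimmer probe. The log2 ratio of *Myl4* to *Myl3* averaged 3.97 in LA (SD 0.43), -0.65 in LV (SD 0.044) and -0.77 in RV (SD 0.16), which put LA 4.68 (pooled SD 0.27) above V. Of this change, *Myl3* contributed a difference of -4.74 and *Myl4* one of -0.054. The log2 ratio of *Myh7* to *Myh6* averaged -0.51 in LA (SD 0.30), -0.62 in LV (SD 0.044) and -0.54 in RV (SD 0.11), and these overlapped. LA and V differed by 0.069 (pooled SD 0.19), and by -0.080 without LA replicate 2. In PV minus LA the log2 ratio of *Myl7* to *Myl2* differed by -1.32 (pooled SD 0.63) with no overlap, and in PV minus SA that of *Myl4* to *Myl3* by -1.01, also with no overlap.

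**Figure D3:**
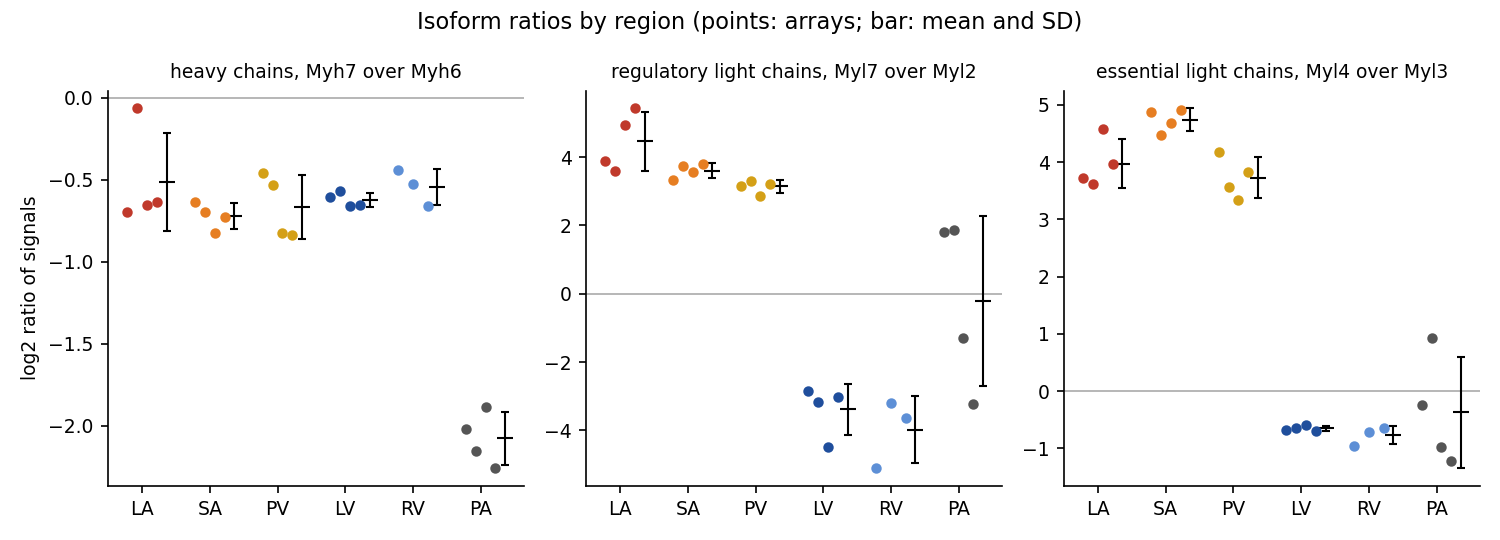
Log2 ratio of the signals of paralogous chains on each array, by region, with the mean and SD. *Myl7* over *Myl2* and *Myl4* over *Myl3* put LA, SA and PV together above 2.8 and LV and RV below -0.5, whereas *Myh7* over *Myh6* averages -0.62 over the heart and lies near -2 in PA.

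None of the 7 genes passed in LV minus RV, nor had any an unadjusted p below 0.05, while 0.522% of all genes passed in limma, 84 of them, and 1727 had an unadjusted p below 0.05. The fit of the 19 heart arrays also called none of the 7, against 0.695% of genes, though there *Myl4* and *Myl7* had an unadjusted p of 0.042 and 0.040 in limma (adjusted p = 0.41 and 0.40). The log2 difference was between 0.063 for *Myh7* and 0.25 for *Myl4* in all but *Myl7*, for which it was 0.81 with a 95% confidence interval from -0.62 to 2.24 (adjusted p = 0.77), and between 0.34 without RV replicate 1 and 1.19 without LV replicate 3. *Myl4* was the only one of the 7 whose arrays did not overlap between LV and RV, with a gap of 0.10, and 10.3% of all genes did not overlap there.

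The ventricular *Myl7* signal varied from array to array and was set beside *Nppa*, *Sln* and *Mybphl*, the 3 of the 6 atrial markers with the largest LA minus V difference. *Nppa*, atrial natriuretic peptide, was between 14.55 and 16.26 in LV and between 10.38 and 11.80 in RV. *Sln*, the atrial inhibitor of the calcium pump, was between 6.44 and 7.68 in LV, and it was 8.17, 10.66 and 8.91 on RV replicates 1 to 3. *Mybphl* was between 5.91 and 6.65 in LV, at 6.49 and 6.63 on RV replicates 1 and 3, and at 9.09 on RV replicate 2, the RV array with the most *Myl7*. *Kcnj3*, another atrial marker, had another order, at 11.17, 10.40 and 10.59 on RV replicates 1 to 3, as had *Gja5*, at 9.79, 9.36 and 9.19. In LA *Nppa*, *Sln* and *Mybphl* were between 17.01 and 18.76. *Myl7* itself was 8.60-fold lower in LV than in LA. The summed signal of the 6 atrial markers was between 30725 and 84878 in LV, between 9408 and 13194 in RV and between 787351 and 927759 in LA, and all 6 were well above background in each. Of the 6 markers, 5 were higher in LA than in V, and *Gja5*, the connexin 40 gene, had a log2 difference of -1.81 (limma adjusted p = 1.0e-07). In PA, *Gja5* was above the heart by 2.54 and *Dkk3* by 0.38, and the other 4 were lower.

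**Figure D4:**
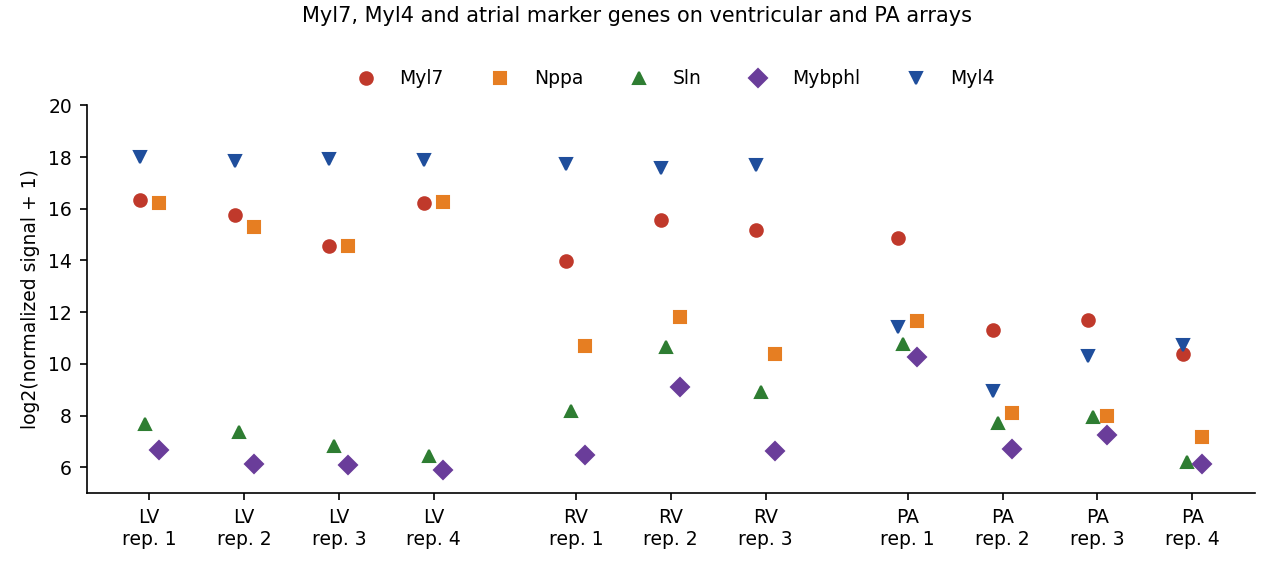
Log2(normalized signal + 1) of *Myl7*, *Myl4* and the atrial markers *Nppa*, *Sln* and *Mybphl* on the 7 ventricular and 4 PA arrays. RV replicate 2 and PA replicate 1 have the most *Sln* and *Mybphl* of their regions, at 10.66 and 9.09 and at 10.76 and 10.28, and *Myl4* stays between 17.59 and 18.00 on all ventricular arrays.

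SA and PV had the light chain pattern of LA, with *Myl2* arrays that all lay above those of LA. *Myl7* was 19.22, 19.47, 19.25 and 19.26 in SA and 18.98, 19.16, 19.15 and 19.07 in PV. *Myl2* was 15.90, 15.74, 15.70 and 15.46 in SA and 15.82, 15.85, 16.27 and 15.85 in PV. Every SA and PV array lay above every LA array for *Myl2*, whose highest value there was 15.11, and below every ventricular one. *Myl2* exceeded LA by 1.33 in SA (standard error 0.59, limma adjusted p = 0.15) and by 1.58 in PV (standard error 0.59, adjusted p = 0.089), so that neither passed in the fit of all regions. Without the PA arrays the adjusted p was 0.0024 for SA and 6.9e-04 for PV, and without PA replicate 2 alone, where 13.5% of genes passed in PV minus LA, it was 0.0018 and 4.1e-04. Markers of other cells moved with it. Of the 6 smooth muscle markers, 4 were higher in SA and 4 in PV than in LA (medians 1.02 and 1.25). Their summed signal was between 61567 and 76224 in LA and between 89820 and 103699 in SA and PV. In LV and RV the same sum was between 85012 and 100194, so it does not set SA and PV apart from the ventricles. Of the 5 Schwann cell markers, 1 was higher in SA and 4 in PV (medians 0.63 and 1.76), and of the 6 pacemaker markers 5 in SA and 4 in PV. Of the 4 adipocyte markers 1 was higher in SA and 2 in PV, and of the 5 fibroblast markers 2 were higher in each and 2 lower in SA. The part of these cells in the *Myl2* difference was not tested.

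*Irx4*, the defining ventricular marker, was well above background on no SA or PV array. With the lowest well-above-background signal of each array as the limit, its mean was at most 4.92 in SA and 4.70 in PV. In LA it averaged 5.52 ± 0.60 (SD, n = 4). The summed signal of the 5 ventricular markers was between 190 and 200 in SA, between 228 and 260 in PV and between 419 and 719 in LA, against 15668 to 23438 in the ventricles. *Hey2*, another of these markers, went the other way in PV, at 5.69 against 4.42 in LA (limma adjusted p = 0.0022), though not all PV arrays had it well above background. In PV minus LA, 1 of the 5 was higher, 2 were lower and 2 did not pass, and in SA minus LA 3 were lower and none higher. Of these 5 markers, 3 were on no SA array, and 2 on no PV array, well above background. Within LA, replicate 2 had the most *Myl2* and also the most *Irx4*, 6.32 against 4.97 to 5.61 on the other LA arrays. *Myl3* had another order, at 13.80 on replicate 2 and highest, at 13.98, on replicate 4, which had the least *Myl2* and the least *Irx4*. No cause of these differences between LA arrays was tested.

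The other members showed smaller shifts between SA, PV and LA. In SA minus LA, none of the 7 passed in the fit of 23 arrays, against 15.3% of all genes (4355 genes had an unadjusted p below 0.05, *Myl2* among them at 0.037), and 4 did not overlap, against 21.6%. In the fit without PA, 3 passed, against 16% of genes: *Myl2*, *Myh6* with a log2 difference of 0.46 (standard error 0.12, adjusted p = 0.014) and *Myl3* with -0.64 (standard error 0.20, adjusted p = 0.037). Without PA replicate 2 alone, the same 3 genes passed, against 15.2% of genes. The summed signal of the working myocyte markers was also higher in SA, between 1591840 and 1689020, than in LA, with 2 of 7 higher and none lower, and its part in the *Myh6* difference was not tested. After quantile normalization, which has the limit given above, the *Myh6* difference was 0.010 (limma adjusted p = 0.99). *Myl3* was 13.01, 13.31, 13.25 and 12.94 on the SA arrays, all of them below the LA arrays, whose lowest was 13.34.

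In PV minus LA, 1 of the 7 passed, against 13.5% of all genes. It was *Myh7b*, at 9.75, 9.64, 9.96 and 9.87 in PV, a log2 difference of 0.62 (standard error 0.19, limma adjusted p = 0.032). This call was lost with the row of the slide as a block (0.072), with the replicate number as a block (0.055), with accessions without a symbol kept (0.055) and when any of 6 arrays was left out, LA replicate 2, 3 or 4 or PV replicate 1, 3 or 4 (0.053 to 0.095 with 1 array left out). *Myh7b* and *Myl2* did not overlap, as did 17.6% of all genes. Without PA, *Myl2* joined it, and 14.1% of genes passed. In PV minus SA, none of the 7 passed, against 3.49% of all genes (2557 genes had an unadjusted p below 0.05, *Myh7b* among them at 0.037). Of the 7, *Myh7b*, *Myl3* and *Myl7* did not overlap, as did 11.2% of all genes. *Myl3* was 13.42, 14.16, 14.58 and 13.91 in PV, all above SA, a log2 difference of 0.90 that passed only without PA (standard error 0.20, adjusted p = 0.024, against 3.20% of genes) or without PA replicate 2 (0.023, against 3.29% of genes).

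In PA, a vessel outside the heart, all 7 genes were lower than in the mean of the other 5 regions, and 27.7% of all genes were lower and 31.4% higher there, 59.1% in all. *Myl4* was 172-fold lower (log2 difference -7.43, standard error 0.24, limma adjusted p = 9.9e-16). Its PA values were 11.44, 8.95, 10.32 and 10.72. They lay far below every heart array, the lowest of which was 17.43. The log2 difference was -5.54 for *Myh7* and -4.07 for *Myh6* (standard error 0.17 each) and -1.26 for *Myh7b* (standard error 0.14). For the light chains it was -4.53 for *Myl2*, -4.85 for *Myl3* and -5.51 for *Myl7*. Of the 7 genes, 4 did not overlap between PA and the heart arrays, against 32% of all genes. The 3 that did were *Myh7b*, whose PA level of 9.10 ± 0.40 (SD, n = 4) did not differ from that of LA beyond the spread (0.092, adjusted p = 0.72), *Myl2*, and *Myl7*. For *Myh7b*, SA did not differ from PA beyond the spread either (0.29, limma adjusted p = 0.20). PV did, by 0.71 (limma adjusted p = 0.0030), as did LV and RV, by 2.68 and 2.51.

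The PA arrays differed among themselves, most in the light chains. *Myl7* was 14.88 on PA replicate 1 and 11.30, 11.70 and 10.39 on replicates 2, 3 and 4. *Myl2* was 13.06, 9.44, 12.99 and 13.61, and *Myl3* was 11.68, 8.01, 11.29 and 11.94, in the same order. PA replicate 1 was highest in *Myl7*. Replicate 2 was lowest of the 4 in *Myl2* and *Myl3* and also in *Myh6* (14.07 against 14.92 to 15.50) and *Myh7* (11.92 against 13.03 to 13.47). It was also lowest in *Myl4* and in *Tnni3*, which is not on the marker lists (9.15 against 11.22 to 12.95). Of the working myocyte markers, *Mb* was lowest there too, at 11.32. *Ckm* and *Ryr2* were not, at 12.83 and 9.04 against 12.60 and 9.01 on replicate 3. PA replicate 1 also had the most *Nppa*, *Sln* and *Mybphl* of the 4, at 11.64, 10.76 and 10.28, against at most 8.09, 7.93 and 7.26 on the others. The summed signal of the 7 markers of working myocytes was between 67160 and 93667 in PA and at least 1076250 on every heart array, while the 6 smooth muscle markers summed to between 344384 and 392883 in PA and at most 103699 in the heart. What part heart muscle attached to the vessel has in these signals was not tested. Without PA replicate 2 the differences of PA from the heart were -3.58 for *Myl2*, -3.94 for *Myl3* and -6.96 for *Myl4*, and all 7 genes passed, against 56.1% of genes in either direction. Without PA replicate 1 the difference of *Myl7* was -6.44.

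The log2 ratio of *Myh7* to *Myh6* was -2.08 ± 0.16 (SD, n = 4) in PA against -0.62 as the mean of the 19 heart arrays, and the groups did not overlap. In PA the log2 ratio of *Myl7* to *Myl2* ran from -3.21 to 1.86 and that of *Myl4* to *Myl3* from -1.22 to 0.93, and for *Myl7* to *Myl2* all 4 PA arrays lay below every array of LA, SA and PV and overlapped with LV and RV.

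Over the 6 regions, all 7 genes differed by the moderated F-test of limma, with adjusted p between 5.0e-14 for *Myh7* and 2.5e-08 for *Myl2*, as did 64.4% of all genes. The order of the levels is given with the steps that passed and those that did not. *Myl2* and *Myl3* ran from LV and RV down to PV, with a step of 2.95 between RV and PV for *Myl2* (limma adjusted p = 0.0018) and of 4.42 for *Myl3* (1.4e-05). Below that step, *Myl2* in PV and SA did not differ beyond the spread (0.25, adjusted p = 0.90), nor did *Myl3* in PV and LA (0.25, 0.84). The steps of *Myl2* from SA to LA (1.33) and of *Myl3* from LA to SA (0.64) passed only without the PA arrays, without PA replicate 2 or with only the arrays compared in the fit. The last steps, to PA, were 2.09 from LA for *Myl2* (limma adjusted p = 0.0053) and 2.39 from SA for *Myl3* (9.6e-04). *Myl7* ran from SA over PV to LA, with no neighbours past the threshold though the SA and PV arrays did not overlap, then stepped down by 3.10 to LV (adjusted p = 7.0e-04), to RV, and by 2.85 to PA (0.0014). *Myh7b* stepped down once, by 1.80 from RV to PV (adjusted p = 1.4e-06). *Myh6*, *Myh7* and *Myl4* had a single step, the last one, to PA, of 3.77, 5.34 and 7.31. Among all genes 25.9% differed between RV and PV, 33.8% between LA and LV, 52.1% between LA and PA, and 53.6% both between RV and PA and between SA and PA. Over the 5 heart regions the means of *Myl4* spanned 0.25, those of *Myh7* 0.35 and those of *Myh6* 0.46, against 2.59 for *Myh7b*, 4.38 for *Myl7*, 4.73 for *Myl2* and 5.44 for *Myl3*.

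The 2 probes of *Myl2* had the same order of regions and different sizes of change. The brighter, A_44_P1081670, was the higher on all 23 arrays and gave all values above. The dimmer, A_44_P397163, was 11.11 ± 1.07 in LA and 18.18 ± 0.034 in LV (SD, n = 4 each), and its LA minus V difference was -6.91 where that of the brighter was -4.63. In SA it was 12.62 ± 0.34 and in PV 12.94 ± 0.26 (SD, n = 4 each), again above LA.

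**Figure D5:**
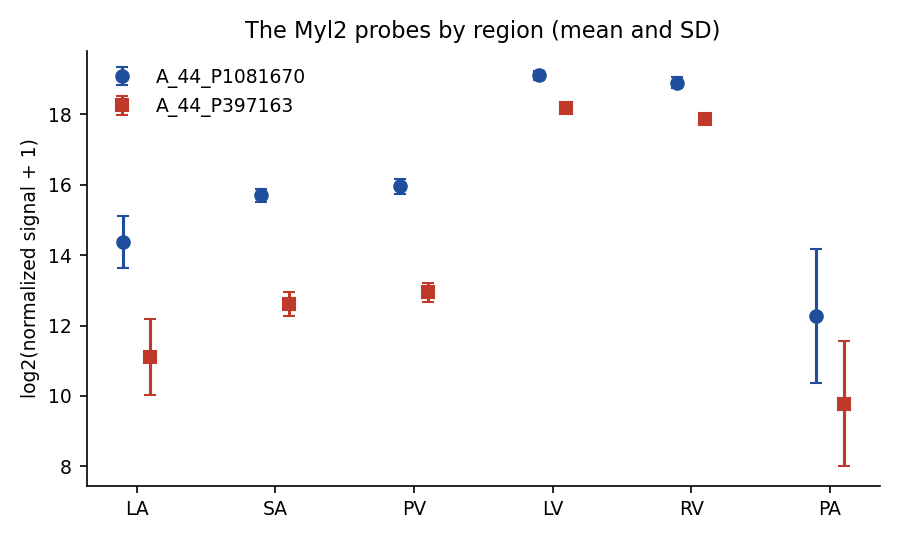
Mean and SD of log2(normalized signal + 1) of both *Myl2* probes in each region (n = 4 arrays, 3 for RV). Both put LV and RV above PV, SA and LA in that order, and the dimmer probe A_44_P397163 has the deeper fall, to 11.11 in LA.

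The arrays lay on 3 slides, in 2 rows on each, and the chamber differences were recomputed within them. In LA minus V, *Myl2* was -5.18, -3.99 and -5.51 within slides 1, 2 and 3, *Myl3* -5.24, -4.64 and -4.52, *Myl7* 2.77, 4.0 and 3.13, and *Myh7b* -2.35, -2.60 and -2.60. Each direction was the same on every slide. Within rows 1 and 2, *Myl2* was -4.93 and -3.86, *Myl7* 3.85 and 2.85, *Myl3* -4.80 and -4.66, and *Myh7b* -2.55 and -2.45. In SA minus LA, *Myl2* was 1.77, 0.48 and 2.22 within the slides and 1.62 and 0.57 within the rows, and in PV minus LA it was 1.79, 0.88 and 2.80 and 1.73 and 0.87. Slide 1 held 1 LA and 1 ventricular array, and slide 3 and row 2 held 1 LA array each.

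The rest of the contractile apparatus gives the scale of these changes between LA and V. Of 16 genes of the thin filament, which slides past myosin, 2 were higher in LA, 7 were lower and 7 did not pass, with a median log2 difference of -0.37 where the median of all genes was -0.088. *Tnni1*, the slow skeletal troponin I of the fetal heart, was higher in LA by 1.99 (standard error 0.30, limma adjusted p = 2.5e-05), and *Tnnt3*, a fast skeletal troponin T, by 0.61. The log2 difference was -1.51 for *Acta1*, skeletal alpha-actin, and -0.88 for *Tmod4*, which caps thin filaments. Of 10 genes of titin, the Z disc and the M band, 1 was higher, *Ldb3* by 0.49, 3 were lower and 6 did not pass (median -0.030). *Pdlim5* and *Synpo2l*, both of the Z disc, differed by -0.94 and -0.41.

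Among other sarcomeric myosin chains, none of 6 passed in LA minus V (median -0.026). *Myh8*, the perinatal heavy chain, was between 16.81 and 17.77 on the heart arrays and 8.92 ± 0.86 (SD, n = 4) in PA, a difference of -8.31 from the heart. Whether its probe also binds *Myh6* or *Myh7* RNA was not tested. The smooth muscle and non-muscle chains had 2 of 8 higher and 2 lower in LA, with *Myh10*, a non-muscle heavy chain, higher by 0.94, *Myl9*, the smooth muscle regulatory light chain, by 0.89, and *Myh9* and *Myl12a* at -0.43 and -0.41 (median -0.22).

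Of 16 genes for proteins that bind, phosphorylate or fold myosin, 4 were higher in LA, 4 were lower and 8 did not pass (median 0.14). *Mybphl* was higher in LA by 10.39 (standard error 0.56, limma adjusted p = 4.8e-11). *Mybpc1*, slow myosin-binding protein C, was 5.94 in LA on average and not well above background on any ventricular array, at least 2.73-fold higher in LA. *Smyd2*, a lysine methyltransferase, differed by -3.82 and *Smyd1*, a muscle methyltransferase that also binds myosin, by -0.80. Of 20 transcription regulators linked to myosin genes, 7 were higher in LA, 3 were lower and 10 did not pass (median 0.20). *Tbx5* was higher by 1.99, *Nr2f2*, a regulator of atrial identity, by 1.80, while *Irx4* differed by -6.86 and *Purb* by -0.37. These lists were chosen with results of these data known, and their counts are read beside the 16.9% of all genes that were higher and the 18.4% that were lower in LA.

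The counts for PA are read beside the 27.7% of all genes that were lower and the 31.4% that were higher there than in the heart. All 10 genes of titin, the Z disc and the M band were lower in PA (median -4.66, all genes 0.051), with *Myom2* of the M band at -8.05 and *Csrp3* of the Z disc at -7.76. Of the 16 thin filament genes, 12 were lower, among them *Tnni3* at -7.07 and *Tnnc1* at -6.91, and 3 were higher, with *Tpm2*, the smooth muscle beta-tropomyosin, at 5.13 and *Tpm3* at 1.53 (median -2.94). Of the 6 other sarcomeric chains 3 were lower, *Myl1* at -1.43 among them (median -0.90). The smooth muscle and non-muscle chains were 6 of 8 higher in PA (median 1.69). *Myh11*, the smooth muscle heavy chain, was higher by 5.55 and *Myl9* by 3.48, and *Myh14* differed by -2.82 and *Myl12a* by -0.21.

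Of the 16 kinase, phosphatase, binding and folding genes 10 were lower in PA and 3 higher (median -1.30). *Mylk*, the smooth muscle light chain kinase, was higher by 4.25 and *Ppp1r12a*, a targeting subunit of myosin phosphatase, by 2.6, while *Mybpc3*, cardiac myosin-binding protein C, differed by -8.30 and *Trim54* by -7.27. Of the 20 regulators 10 were lower and 8 higher (median -0.24), against 27.7% and 31.4% of all genes, with *Nkx2-5* at -5.07, *Rxra* at -2.72, and *Hey2* and *Tead3* higher by 3.23 and 2.87. Between LV and RV, where 0.522% of all genes passed, 3 of the 76 genes tested in the 6 lists passed, all higher in LV: *Myot* by 1.53 and *Pdlim5* by 0.77 of the Z disc and *Myl1*, a fast skeletal essential light chain, by 1.84.

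For each member the genes with the most similar pattern over the 23 arrays were found by the root mean square difference of centred log2 signals, among 11432 to 11781 genes. The arrays share their depth and scaling, and the PA arrays weigh heavily in the measure. *Myl2* and *Myl3* were each nearest to the other, at 0.86, followed by *Rpl3l* and *Tuba8* for *Myl2* and by *Fhl2* and *Rpl3l* for *Myl3*. *Myl4* was nearest to *Trim54* (0.24), *Tnni3* (0.30) and *Hhatl* (0.30). *Tnni3*, cardiac troponin I, averaged 18.22 in LA and 18.61 in LV, and its LA arrays lay below all ventricular ones. *Myh6* was nearest to *Tnnt2* (0.26), *Nxnl2* and *Mdh1*, and *Myh7* to *Myzap* (0.20), *Cox8b* and *Pkp2*. Among the genes nearest to *Myh7b* were *Exoc3l4* (0.32) and *Tasp1*, and *Myl7* was nearest to *LOC102550325* (0.75), *Art1* and *Rxfp1*, which were also highest in LA, SA and PV.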

How the data were processed

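RNA of 6 rat heart and vessel regions was measured on 23 single-color arrays, read with Agilent Feature Extraction 11.0.1.1 per the submitters' processing notes. The authors deposited intensity values normalized to the 90th percentile, on a linear scale, and these were used. The deposited scanner files, with intensity values and other columns on background and saturation, served as checks and alternatives. Probes were named through RefSeq accessions (GRCr8), and 156 of 45596 deposited probes had a missing value and were left out. For each gene the brightest probe per array was used, as log2(value + 1), which understates changes of dim genes. The 16089 genes above 4 on at least 1 array were fitted by region with limma 3.58.1 (R 4.3.3), with Benjamini-Hochberg adjustment over all of them. Tested on simulated data for LA minus V with 200 of 16089 genes changed by a log2 value of 1, the fit recovered 59% of them. The number of arrays limits the precision. Intervals are from the moderated t distribution.

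The myosin genes, gene lists and marker lists were chosen with earlier results of these data known. The genes named are the 7 members, the 3 most like each in pattern, and up to 2 genes per list and direction with the largest change among those that passed, if all arrays of the higher group had them well above background, and 1 gene that this rule names is not reported here. The alternatives covered scaling, background correction, pseudocount, filter, choice of probe, slide, row and replicate number as blocks, the arrays in the fit, a variance trend, the methods' analysis of variance and each array left out. Each *Myl2* probe by itself and the fit without PA were added after the data were seen.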

Additional observations from a re-analysis of the deposited data

Results flagged for a closer look

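In groups of 4 arrays, the highest or lowest array stood apart from the other 3 by Dixon's 95% criterion in 5 of 50 groups of member signals and ratios tested. Chance alone gives about 1 in 20.

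*Myl2* on PA replicate 2 was 9.44, against 12.99 to 13.61 on the other PA arrays, and *Myl3* on the same array was 8.01, against 11.29 to 11.94. *Myl2* on PV replicate 3 was 16.27, against 15.82 to 15.85. *Myl7* on SA replicate 2 was 19.47, against 19.22 to 19.26. The log2 ratio of *Myh7* to *Myh6* on LA replicate 2 was -0.07, against -0.70 to -0.64. On this LA array *Myh6* was the lowest of the 4, at 18.48, and *Myh7* the highest, at 18.42. Without it the LA minus V difference of this ratio turned from 0.069 to -0.080.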

How the results depend on the processing

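Precision is limited by the 3 or 4 arrays of a region, and a missed threshold does not show that regions are alike. The 4 calls in LA minus V, those of *Myh7b*, *Myl2*, *Myl3* and *Myl7*, and the 7 calls in PA minus heart and over the 6 regions held in all alternatives and with each array left out, and LV minus RV had none in any. The count of myosin genes in LA minus V was between 4 and 6 with 1 array left out. Those counts were 0 to 3 for SA minus LA, 0 to 2 for PV minus LA and 0 to 1 for PV minus SA. PV minus LA fell from 1 to 0 with accessions without a symbol kept, with the row of the slide as a block and with the replicate block. With only the arrays compared in the fit, 4 passed in SA minus LA (13% of all genes) and 2 in PV minus LA (8.18%). In the 19 heart arrays without PA, 3 passed in SA minus LA, 2 in PV minus LA and 1 in PV minus SA. The cause was not tested, except that PA replicate 2 widens the common spread.

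Quantile normalization turned the sign of small differences that did not pass. *Myh7* became 0.070 in LA minus V, -0.047 in LV minus RV, -0.11 in SA minus LA, -0.089 in PV minus LA and 0.025 in PV minus SA. *Myl4* became 0.22 in LA minus V, -0.14 in SA minus LA, -0.11 in PV minus LA and 0.024 in PV minus SA, *Myl7* -0.065 in PV minus LA and *Myh6* 0.0024 in PV minus SA, and *Myh6* in SA minus LA fell from 0.46 to 0.010 with no change of sign. In PV minus LA, *Myl4* was 0.0053, and it became -0.0091 with normexp and -0.023 with the slide as a block. With 1 array left out it was between -0.098 and 0.074. Its LA minus V difference was between -0.12 and 0.050 with 1 array left out, that of *Myh7* in LV minus RV between -0.022 and 0.23 and that of *Myh7b* between -0.080 and 0.33. The change of the log2 ratio of *Myl7* to *Myl2* in LA minus V was 9.28 with the mean of the *Myl2* probes and 10.42 with the dimmer probe, and that of *Myh7* to *Myh6* in LV minus RV was 0.079 with normexp, against -0.078.

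Counts over all genes moved by over 1.5 times in some settings. With accessions without a symbol kept they were 9371 against 5691 in LA minus V, 18488 against 9508 in PA minus heart and 19200 against 10363 over the 6 regions. With only the arrays compared they were 13 against 84 in LV minus RV, 1264 against 2172 in PV minus LA and 67 against 562 in PV minus SA. With normexp they were 4185 against 2460 in SA minus LA and 348 against 562 in PV minus SA. In LV minus RV they were 137 with the filter on genes well above background and 144 with a variance trend. With 1 array left out, PV minus SA fell to 176 without PV replicate 4 and to between 245 and 298 without SA replicate 1, 2 or 3, and LV minus RV to 52 without LV replicate 2 and to 46 and 41 without RV replicates 1 and 2.

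Replicate numbers are only shared numbers here, taken from the labels, and the study's supplement numbers the RV samples otherwise. Of 55 pairs of arrays with the same number, 12 had deviations that correlated above 0.1 (median -0.043, against 0.00098 for different numbers), and 4 of 23 arrays correlated best with their own number. With the replicate block, *Myh7b* in PV minus LA had an adjusted p of 0.055, and no other call on the 7 genes changed.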

Other observations

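*Myh11*, chosen here after its values were seen, was 10.72 in LA, 13.01 in SA and 13.95 in PV on the log2 scale, and exceeded LA by 2.30 in SA (standard error 0.22, limma adjusted p = 1.4e-06) and by 3.23 in PV (standard error 0.22, adjusted p = 5.8e-08). Of the 8 smooth muscle and non-muscle chains, 3 were higher in SA than in LA and 2 in PV than in LA, and none was lower, where 15.3% and 13.5% of all genes differed. *Tpm2*, also chosen after its values were seen, rose beside it, by 2.15 and 3.20. *Tnni1*, slow skeletal troponin I, differed by -2.22 in SA and -1.88 in PV from LA.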
